A study of Mus musculus with 23 samples.

Results

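Interferon-stimulated genes, the targets that cells switch on when they sense type I or type II interferon, were followed in the livers of mice with and without P2ry13. The set was named by symbol, as 34 known interferon targets, and each gene was read from its brightest probe set that carries that symbol alone. Of the 34 genes, 30 had such a probe set and are described here, out of 19147 genes named by 24478 probe sets and of 38385 probe sets in all. Ifit3, Oas1a, Oasl2 and Ifi44 had none and were not analysed.

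The arrays measured total liver RNA of female wild-type (WT, 6 arrays), female knockout (KO, 6), male WT (5, numbered 2 to 6) and male KO (6) mice. In the KO groups the gene for P2ry13 (GPR86), which senses extracellular ADP, had been ablated, and the study asked which liver transcripts differ without it. The labels name the tissue, sex and genotype only. They give no age, strain, diet, treatment or deletion method for any group, and no agent that induces interferon is mentioned. All values are log2 intensities unless a fold is named, and the number of arrays limits their precision.

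Interferons are secreted proteins that warn neighbouring cells of infection. Type I interferons act largely through the interferon-stimulated response element (ISRE) in promoters, which a complex holding STAT2 and IRF9 binds, while type II interferon acts largely through the gamma-activated site (GAS). The genes below respond to one or both signals, many of them have a low tonic level in healthy tissue, and in liver they are expressed by hepatocytes as well as by resident macrophages (Kupffer cells), endothelium and lymphocytes.

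Promoter sequences are shown because the ISRE is a feature that many of these genes hold. The genes were chosen as known interferon targets, so a share above that of all genes may follow from the choice. RefSeq promoter tables (assembly GRCm38.p6) held a window for 22 of the 30 measured genes, and Dhx58, Mx1, Mx2, Oas2, Parp14, Rtp4, Usp18 and Zbp1 were without one. The 250 bases before each start in those tables were searched on both strands for the ISRE core GAAANNGAAA. They were also searched for the GAS core TTCNNNGAA, which reads alike on both strands. For Gbp3, Ifit2, Irf7, Oas3, Oasl1 and Xaf1 no window lay directly before the RefSeq gene start, so a core there could be missed. The 5 windows below, picked after the values were seen and printed 5′ to 3′ on the gene's own strand, hold an ISRE core in capitals, as TTTCNNTTTC where it lies on the opposite strand. The first 4 belong to genes that were higher in female livers and the last, Oas1g, to one that did not pass that test.
Gbp2 (forward strand, chr3:142620413-142620662): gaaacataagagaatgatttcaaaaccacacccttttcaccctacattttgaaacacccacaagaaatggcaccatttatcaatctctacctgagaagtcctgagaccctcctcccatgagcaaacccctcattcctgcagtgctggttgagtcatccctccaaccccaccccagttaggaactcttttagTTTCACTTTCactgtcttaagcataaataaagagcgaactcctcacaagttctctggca
Igtp (forward strand, chr11:58199306-58199555): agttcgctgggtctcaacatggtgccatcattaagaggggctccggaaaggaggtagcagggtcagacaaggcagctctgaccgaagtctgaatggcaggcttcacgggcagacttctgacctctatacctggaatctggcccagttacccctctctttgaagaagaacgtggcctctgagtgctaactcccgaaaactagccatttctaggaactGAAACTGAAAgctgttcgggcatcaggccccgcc
Isg15 (reverse strand, chr4:156200819-156201068): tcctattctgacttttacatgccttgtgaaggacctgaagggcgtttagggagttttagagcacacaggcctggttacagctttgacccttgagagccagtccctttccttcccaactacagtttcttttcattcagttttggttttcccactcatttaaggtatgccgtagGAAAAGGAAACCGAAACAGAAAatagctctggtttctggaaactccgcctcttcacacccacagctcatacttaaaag
Rsad2 (reverse strand, chr12:26456453-26456702): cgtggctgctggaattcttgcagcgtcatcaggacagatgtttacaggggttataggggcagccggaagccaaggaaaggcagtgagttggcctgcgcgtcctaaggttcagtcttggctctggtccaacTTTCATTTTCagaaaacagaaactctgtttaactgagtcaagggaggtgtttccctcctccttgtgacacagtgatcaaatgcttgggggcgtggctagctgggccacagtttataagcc
Oas1g (reverse strand, chr5:120887614-120887863): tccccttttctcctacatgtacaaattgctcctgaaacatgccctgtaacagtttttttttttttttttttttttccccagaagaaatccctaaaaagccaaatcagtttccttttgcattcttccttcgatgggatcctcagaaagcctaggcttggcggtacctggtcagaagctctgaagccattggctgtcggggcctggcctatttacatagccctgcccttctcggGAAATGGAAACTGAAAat
Isg15 carried 3 overlapping copies of the core, Oas1g carried 2, and Gbp2, Igtp and Rsad2 carried 1 each. An ISRE core was present in 12 of the 22 genes (54.5%), against 936 of 27025 genes in the whole table (3.46%). A GAS core was present in 4 of the 22 genes (18.2%), against 8.13% of all genes. Among genes higher in females 9 of 15 held an ISRE core, and among those that did not pass that test 3 of 7 did. These letters describe the windows and do not show binding.

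As checks on the arrays, 6 hepatocyte markers averaged between 12.57 and 12.99 on every array and array medians lay between 19.5 and 21.1 on the linear scale. P2ry13 lay between 5.80 and 6.42 on the WT arrays and between 5.06 and 5.34 on the KO arrays, with no overlap. Probe sets of 4 Y-linked genes read 2.53 to 3.69 on the female arrays, which shows where signal without transcript can lie. Mx1 and Oas1g stayed inside or below that range on all 23 arrays, and Xaf1 did on 22, so a change in these 3 genes may not have been measurable. Since P2ry13 still read up to 5.34 on KO arrays, signal without intact transcript may reach higher for other probe sets. Mx2 and Oas3 never exceeded that value. Parp14 stayed below it on the male arrays, and Gbp2 and Rtp4 were below it on part of the male arrays.

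Female livers had higher levels of many interferon-stimulated genes than male livers. Averaged over WT and KO, 19 of the 30 genes were higher in females (limma, adjusted p under 0.05 over all probe sets) and 0 were lower. The background is large here, since 10.5% of all 38385 probe sets differed between the sexes, 5.96% being higher in females and 4.55% lower. Among the brightest probe sets of all named genes, 8.25% were higher in females. The median difference of the 30 genes was 0.29 and that of all probe sets was -0.01. The genes that differed most were the interferon-inducible GTPases Gbp3, Gbp2 and Igtp, the immunoproteasome subunit Psmb8 and the antiviral translation inhibitor Ifit1. For Gbp3, Gbp2, Igtp and Psmb8, all 12 female arrays lay above all 11 male arrays, a separation seen in 0.787% of all probe sets.

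**Figure D1:**
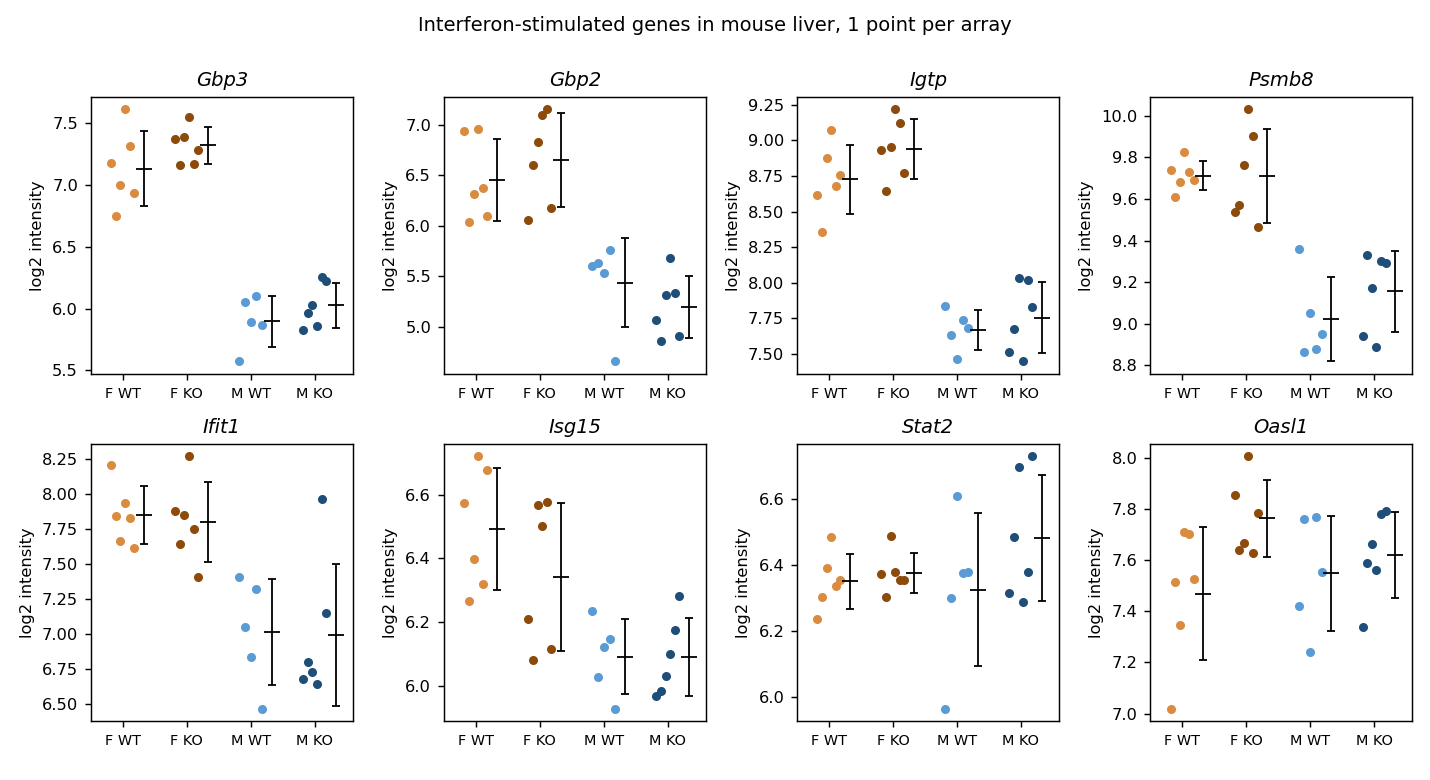
Log2 intensity of 8 interferon-stimulated genes on each of the 23 arrays, with 1 point per array and the mean ± SD of each group beside the points (F, female; M, male). In the first 4 panels all female points lie above all male points, in the Ifit1 and Isg15 panels the sexes overlap in part, and the Stat2 and Oasl1 levels of the sexes lie over each other.

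The set holds 4 guanylate-binding proteins and immunity-related GTPases, which attack the vacuoles of intracellular pathogens, and all 4 were higher in females. Gbp3 read 7.18, 6.75, 7.00, 7.61, 7.31 and 6.94 in replicates 1 to 6 of female WT, and 7.37, 7.17, 7.39, 7.55, 7.17 and 7.29 in female KO. In males it read 5.57, 6.05, 5.89, 6.11 and 5.87 in WT replicates 2 to 6 and 5.83, 5.97, 6.03, 5.86, 6.26 and 6.22 in KO. The lowest female array was thus above the highest male array, and the female mean was higher by 1.27 (SE 0.08, 2.4-fold, limma, adjusted p = 9.05e-12).

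Gbp2, whose promoter is printed above, varied more within groups. It read 6.94, 6.04, 6.31, 6.96, 6.38 and 6.09 in female WT and 6.06, 6.60, 6.83, 7.09, 7.15 and 6.17 in female KO. In males it read 5.60, 5.63, 5.54, 5.76 and 4.66 in WT replicates 2 to 6 and 5.07, 4.87, 5.32, 5.68, 5.34 and 4.91 in KO. Both sexes spread over about a log2 unit without meeting, and the female mean was higher by 1.23 (SE 0.15, 2.35-fold, limma, adjusted p = 7.15e-07). Male WT replicate 6 was the lowest array of all for this gene.

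Igtp, also known as Irgm3, is a GTPase of the endoplasmic reticulum and of lipid droplets. Its levels were 8.62, 8.36, 8.88, 9.07, 8.68 and 8.75 in female WT and 8.93, 8.64, 8.95, 9.22, 9.12 and 8.77 in female KO. Male levels were 7.84, 7.64, 7.46, 7.74 and 7.68 in WT replicates 2 to 6 and 7.52, 7.68, 8.03, 7.45, 8.02 and 7.83 in KO. No male array reached the lowest female one, and the difference was 1.12 (SE 0.08, 2.17-fold, limma, adjusted p = 1.1e-10). Its relative Irgm1, a regulator of autophagy and of the other GTPases, ran from 9.02 to 9.59 in females (median 9.22) and from 8.75 to 9.35 in males, whose median lay below the lowest female array. The sexes overlapped for Irgm1, and its difference of 0.24 passed narrowly (SE 0.07, limma, adjusted p = 0.0346). That call ended when any 1 of 9 arrays was left out, namely female WT replicates 4 and 5, female KO replicates 3, 4 and 5, male WT replicate 6, or male KO replicates 1, 2 and 4, with an adjusted p of up to 0.075.

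Among the 3 genes of class I antigen processing, 2 passed. Psmb8 is a catalytic subunit that replaces a constitutive one in the immunoproteasome, which cuts proteins into peptides for display. It read from 9.47 to 10.03 in females (median 9.71) and from 8.87 to 9.36 in males (median 9.05), and the difference was 0.62 (SE 0.07, 1.54-fold, limma, adjusted p = 4.66e-07). Psmb9, a second immunoproteasome subunit, ran from 8.36 to 8.96 in females (median 8.69) and from 7.85 to 8.61 in males (median 8.21). For Psmb9 the sexes overlapped, through male WT replicate 2 at 8.61 and male KO replicates 5 and 6 at 8.47 each. The difference was 0.45 (SE 0.08, limma, adjusted p = 0.00033). Tap1, which carries the peptides into the endoplasmic reticulum, did not pass. It ran from 6.64 to 7.23 in females and from 6.42 to 6.91 in males, with a difference of 0.20 (SE 0.07, limma, adjusted p = 0.0862). Psmb8, Psmb9 and Tap1 are neighbours in the major histocompatibility region of chromosome 17.

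Cxcl10, the interferon-induced chemokine that draws activated T cells, ran from 5.95 to 6.70 in females (median 6.31) and from 5.61 to 6.29 in males (median 5.80). Its difference was 0.47 (SE 0.08, 1.39-fold, limma, adjusted p = 0.000146). The WT arrays of the sexes did not overlap, and the KO arrays did.

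Both measured IFIT genes, whose proteins bind foreign RNA ends and block translation, were higher in females. Ifit1 ran from 7.41 to 8.27 in females (median 7.84) and from 6.46 to 7.97 in males (median 6.83), with a difference of 0.82 (SE 0.13, 1.77-fold, limma, adjusted p = 7.33e-05). In males 1 array stood out: male KO replicate 5 read 7.97, above most of the female arrays, while the other 5 male KO arrays read 6.68, 6.79, 6.72, 6.64 and 7.15. Ifit2 ran from 6.76 to 7.17 in females (median 6.95) and from 5.87 to 6.86 in males (median 6.46), and 10 of the 12 female arrays lay above all male arrays. Its difference was 0.55 (SE 0.07, 1.46-fold, limma, adjusted p = 5.68e-06).

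The ISG15 system attaches a ubiquitin-like protein, ISG15, to other proteins, and Usp18 removes it and also restrains the type I receptor. Usp18 ran from 7.88 to 8.37 in females (median 8.04) and from 7.14 to 7.97 in males (median 7.50), a difference of 0.56 (SE 0.08, 1.47-fold, limma, adjusted p = 1.96e-05). Isg15 itself ran from 6.08 to 6.72 in females (median 6.45) and from 5.93 to 6.28 in males (median 6.10). The WT arrays separated by sex for Isg15 while the KO arrays overlapped, and its difference was 0.33 (SE 0.07, 1.25-fold, limma, adjusted p = 0.00207).

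The 3 genes grouped here as sensors of foreign nucleic acid, Zbp1, Ifih1 and Dhx58, were higher in females. The oligoadenylate synthetases, which also sense foreign RNA, are given separately below and did not pass. Zbp1, which binds Z-form nucleic acid and can trigger cell death, ran from 6.46 to 7.56 in females (median 7.10) and from 6.13 to 6.66 in males (median 6.46), and 11 of 12 female arrays lay above all males. Its difference was 0.61 (SE 0.09, 1.52-fold, limma, adjusted p = 2.28e-05). The other Zbp1 probe set gave 0.29 and did not pass (limma, adjusted p = 0.0677), so the size of the Zbp1 difference depended on the probe set. Ifih1, the sensor MDA5 of long double-stranded RNA, ran from 8.39 to 8.86 in females (median 8.64) and from 7.92 to 8.56 in males (median 8.30), with a difference of 0.39 (SE 0.07, limma, adjusted p = 0.000611). Dhx58, the related helicase LGP2, ran from 6.59 to 6.86 in females (median 6.67) and from 6.21 to 6.66 in males (median 6.47). For Dhx58 the sexes overlapped in part, and its difference was 0.25 (SE 0.05, limma, adjusted p = 0.0024).

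Among the other antiviral effectors, Rtp4, Rsad2 and Bst2 passed. Rtp4, a chaperone of opioid receptors that also binds viral replication complexes, ran from 5.48 to 6.13 in females (median 5.84) and from 5.03 to 5.64 in males (median 5.31). Its difference was 0.46 (SE 0.07, 1.38-fold, limma, adjusted p = 5.82e-05). Rsad2, the enzyme viperin, which makes a chain-terminating nucleotide, ran from 8.41 to 9.07 in females (median 8.63) and from 7.93 to 8.72 in males (median 8.17). The difference was 0.41 (SE 0.09, 1.33-fold, limma, adjusted p = 0.00164), and the other 2 Rsad2 probe sets gave 0.32 and 0.41, both passing. Bst2, the membrane tether tetherin that holds budding virus at the cell surface, overlapped widely: from 11.38 to 11.76 in females (median 11.61) and from 11.18 to 11.65 in males (median 11.40). Its difference of 0.18 passed narrowly (SE 0.06, limma, adjusted p = 0.0417). The Bst2 call stood when any 1 of 8 arrays was left out (female WT replicates 5 and 6, female KO replicates 2 and 5, male WT replicates 2 and 5, male KO replicates 2 and 5) and ended without any 1 of the other 15, with an adjusted p of up to 0.0967.

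Parp14, an ADP-ribosyltransferase, Ifi35, a scaffold of innate signalling, and Xaf1, a pro-apoptotic factor, did not pass. Parp14 had a difference of 0.20 (limma, adjusted p = 0.128), with 4.88 to 5.74 in females and 4.74 to 5.30 in males. Ifi35 had one of 0.09 (limma, adjusted p = 0.37), and Xaf1, read near the level of signal without transcript, had 0.00 after rounding.

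The transcription factors of the pathway split. Irf7, the factor that amplifies type I interferon production, ran from 8.20 to 8.84 in females (median 8.40) and from 7.59 to 8.47 in males (median 8.13), a difference of 0.33 (SE 0.08, limma, adjusted p = 0.00959). Irf9, the DNA-binding part of the ISRE complex, ran from 8.44 to 8.87 in females (median 8.60) and from 8.15 to 8.60 in males (median 8.36), a difference of 0.23 (SE 0.05, limma, adjusted p = 0.00588). Stat2, the partner of Irf9 in that complex, ran from 6.24 to 6.49 in females (median 6.35) and from 5.97 to 6.73 in males (median 6.38). The male arrays enclosed the female ones for Stat2, and it did not pass (difference -0.04, SE 0.06, limma, adjusted p = 0.767).

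Of the oligoadenylate synthetases and the Mx GTPases, which are textbook interferon targets, 0 of the 4 measured OAS genes and 0 of the 2 Mx genes passed (limma). The OAS enzymes make the second messenger that activates RNase L. Oasl1, an OAS-like protein, ran from 7.02 to 8.01 in females and from 7.24 to 7.79 in males, with a difference of 0.03 (SE 0.08, limma, adjusted p = 0.863). Oas2 ran from 5.65 to 6.35 in females and from 5.81 to 6.49 in males, with a difference of -0.01 (SE 0.07, limma, adjusted p = 0.971). Oas3 ran from 4.69 to 5.16 in females and from 4.77 to 5.20 in males, with a difference of -0.03 (SE 0.06, limma, adjusted p = 0.791). The sexes overlapped for these 3 genes, and the Oasl1 levels of females spread wider than those of males. Oas1g, with 2.50 to 3.24 in females and 2.64 to 3.04 in males, and Mx1, with 3.04 to 3.50 and 3.02 to 3.26, were read at the level of signal without transcript. Mx2 ran from 4.51 to 4.98 in females and from 4.50 to 4.92 in males, with a difference of -0.03 (SE 0.05, limma, adjusted p = 0.782). Oas3 and Mx2 stayed below 5.34, the highest P2ry13 reading on the KO arrays, so a difference may not have been measurable. That the OAS and Mx genes differed less than the GTPases was not tested.

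The sex difference was then read in WT and KO arrays separately, which share no array. In WT, 12 of the 30 genes were higher in females and 0 lower, against 4.25% of all probe sets called, 2.54% higher and 1.71% lower. In KO, 14 were higher and 0 lower, against 4.85% called, 3.21% higher and 1.64% lower. The genotypes had 11 called genes in common: Gbp3, Gbp2, Igtp, Ifit1, Psmb8, Zbp1, Usp18, Ifit2, Cxcl10, Rtp4 and Ifih1. Gbp3 differed by 1.24 in WT and 1.29 in KO (limma, adjusted p = 6.84e-08 and 7.97e-09). Igtp differed by 1.05 and 1.19 (limma, adjusted p = 1.22e-06 and 3.85e-08), and Gbp2 by 1.01 and 1.45 (limma, adjusted p = 0.00394 and 1.8e-05). Of the 30 genes, these had the widest gaps in both genotypes. All female WT arrays lay above all male WT arrays for 10 of the 30 genes, against 2.18% of all probe sets, and all female KO arrays above all male KO arrays for 7, against 2.25%.

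Isg15 passed in WT alone, with 0.40 in WT and 0.25 in KO (limma, adjusted p = 0.019 and 0.16). Psmb9, Rsad2 and Dhx58 passed in KO alone. Psmb9 had 0.39 in WT and 0.50 in KO (limma, adjusted p = 0.0564 and 0.00561), Rsad2 had 0.37 and 0.45 (0.102 and 0.0216), and Dhx58 had 0.20 and 0.29 (0.162 and 0.0176). Irf7, Irf9, Irgm1 and Bst2 passed in neither genotype on its own. None of these members passed the test of the difference between genotypes, so passing in 1 genotype alone does not show that the sexes differed more there.

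**Figure D2:**
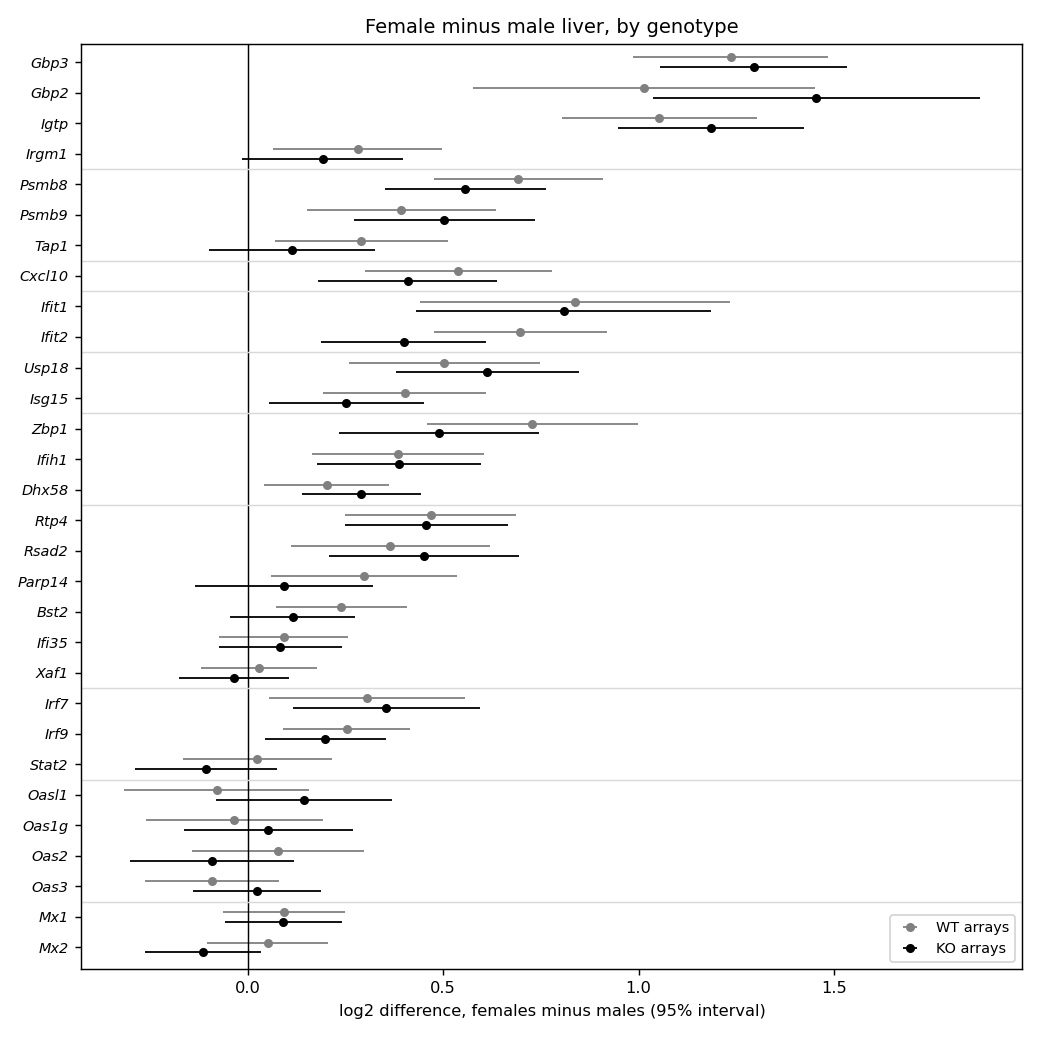
Difference in log2 intensity, females minus males, for each of the 30 measured genes grouped by role, read in WT arrays and in KO arrays separately, with the limma 95% interval. Gbp3, Gbp2 and Igtp lie beyond 1 log2 unit in both genotypes, and the OAS and Mx genes lie around 0.

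**Figure D3:**
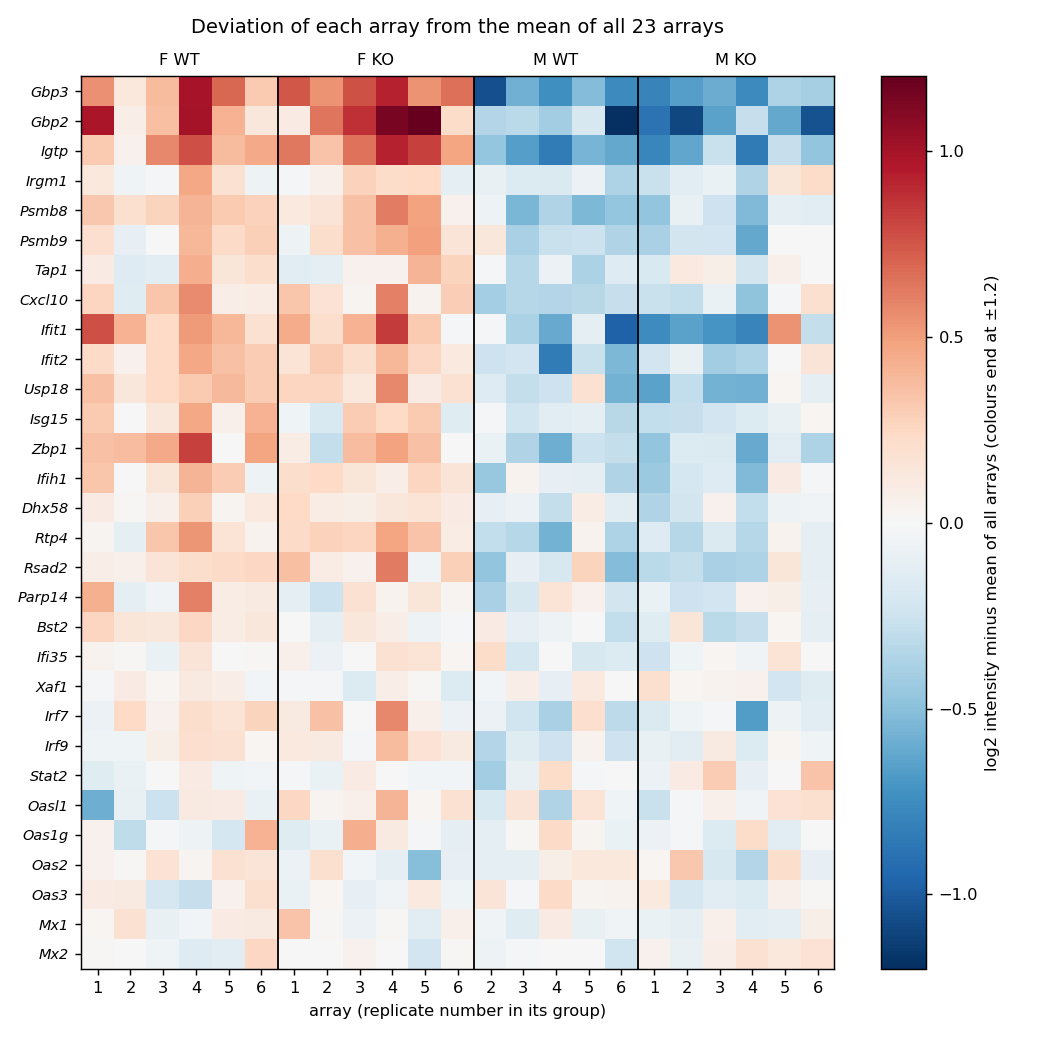
Log2 intensity of each of the 30 measured genes on each array, as the deviation from that gene's mean over all 23 arrays, with arrays in columns by group and genes in rows by role. The female columns are mostly above the mean and the male columns mostly below it in the GTPase, antigen processing and IFIT rows, and no such division is seen in the OAS and Mx rows.

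Other interferon targets, from lists that do not overlap with the 34 genes, moved in the same direction. These lists were chosen with earlier results of these data known and read on the same livers, so they are not separate support. Of all probe sets, 5.96% were higher in females and 4.55% lower. Of 25 other type I targets, 18 were higher in females and 0 lower (median 0.28). Uba7, the enzyme that activates ISG15 for conjugation, was higher by 0.85 (limma, adjusted p = 9.37e-09), Trim30a by 0.87, Slfn5 by 0.50 and Nmi by 0.46. Of 18 other type II targets, 11 were higher and 0 lower (median 0.37). Gbp7, a further guanylate-binding protein, was higher by 1.53 (limma, adjusted p = 4.76e-11), the immunoproteasome subunit Psmb10 by 0.59 (limma, adjusted p = 4.33e-09), the peptide-loading chaperone Tapbp by 0.50 (limma, adjusted p = 2.22e-08) and the GTPase Irgm2 by 0.62. B2m, the light chain of class I molecules, was not among them, with a difference of -0.02 (limma, adjusted p = 0.773).

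Genes upstream of the targets were read from 4 further lists, to be set against the 10.5% of all probe sets that differed between the sexes. Of 8 interferon genes, 0 passed, and their median difference was -0.05. Their mean level lay at 4.13 to 4.38, below P2ry13 on the KO arrays (5.06 to 5.34). A difference in them may therefore not have been measurable. Ifng, the type II interferon, had -0.15 (limma, adjusted p = 0.0966) and Ifna4 had -0.12 (limma, adjusted p = 0.216), both with means at or near the level of signal without transcript. Of 6 receptor subunits, Ifngr1 was higher in females by 0.26 (limma, adjusted p = 0.000428) and Il10rb by 0.29 (limma, adjusted p = 0.00268), while both subunits of the type I receptor, Ifnar1 and Ifnar2, did not pass. Of 10 signalling factors, Irf8 was higher by 0.22 (limma, adjusted p = 0.00421) and Irf2, a repressor of interferon targets, was lower (-0.26, limma, adjusted p = 0.0197). Of 11 genes of nucleic acid sensing outside the 34, 0 passed. The smallest p among them belonged to Ddx58, the sensor RIG-I, with 0.15 (limma, adjusted p = 0.184).

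Most markers of Kupffer cells differed between the sexes as well, while most markers of the other immune cells did not. The marker counts here and below stand against 10.5% of all probe sets, 5.96% being higher in females and 4.55% lower. Of 9 Kupffer cell markers, 8 were higher in females and 0 lower (median 0.51), among them Adgre1 by 0.61, Timd4 by 0.65, Vsig4 by 0.55 and C1qa by 0.51. Marco, with 0.83, had the widest gap of that list. Csf1r did not pass (0.10, limma, adjusted p = 0.185). The mean level of the Kupffer list lay between 8.55 and 8.86 on female WT, 8.63 and 8.98 on female KO, 8.04 and 8.39 on male WT and 8.05 and 8.46 on male KO arrays, so it separated the sexes. The mean level of the 30 interferon-stimulated genes separated them too: 6.92 to 7.22, 6.97 to 7.23, 6.55 to 6.79 and 6.56 to 6.87 in the same order.

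Of 7 sinusoidal endothelial markers, 4 were higher in females (median 0.22), with Stab1 at 0.26 and Stab2 at 0.23, and the mean level of that list lay at 8.02 to 8.31 in females and 7.84 to 8.05 in males. Of 9 lymphocyte markers, Cd3g and Nkg7 were higher by 0.48 and 0.41 and Cd4 was lower (-0.32), and of 5 monocyte and neutrophil markers 1, S100a8, was higher. The mean levels of these 2 lists overlapped between the sexes. Those levels, and that of the plasmacytoid dendritic list, lay below 5.06, the lowest P2ry13 reading on the KO arrays. Of 5 plasmacytoid dendritic cell markers and of 6 hepatocyte markers, 0 passed (limma), with Siglech, the marker of plasmacytoid dendritic cells, at -0.02 and Alb at 0.07. Averaged over the genotypes, the differences of Gbp3, Gbp2 and Igtp were larger values than those of any Kupffer, endothelial or lymphocyte marker listed. In KO arrays alone the widest gap of a Kupffer marker was 1.194, against 1.186 for Igtp. These rankings were not tested. The part of these cell types in the sex difference of the interferon-stimulated genes was not tested. In whole liver, fewer cells of a type and less RNA per cell cannot be told apart.

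**Figure D4:**
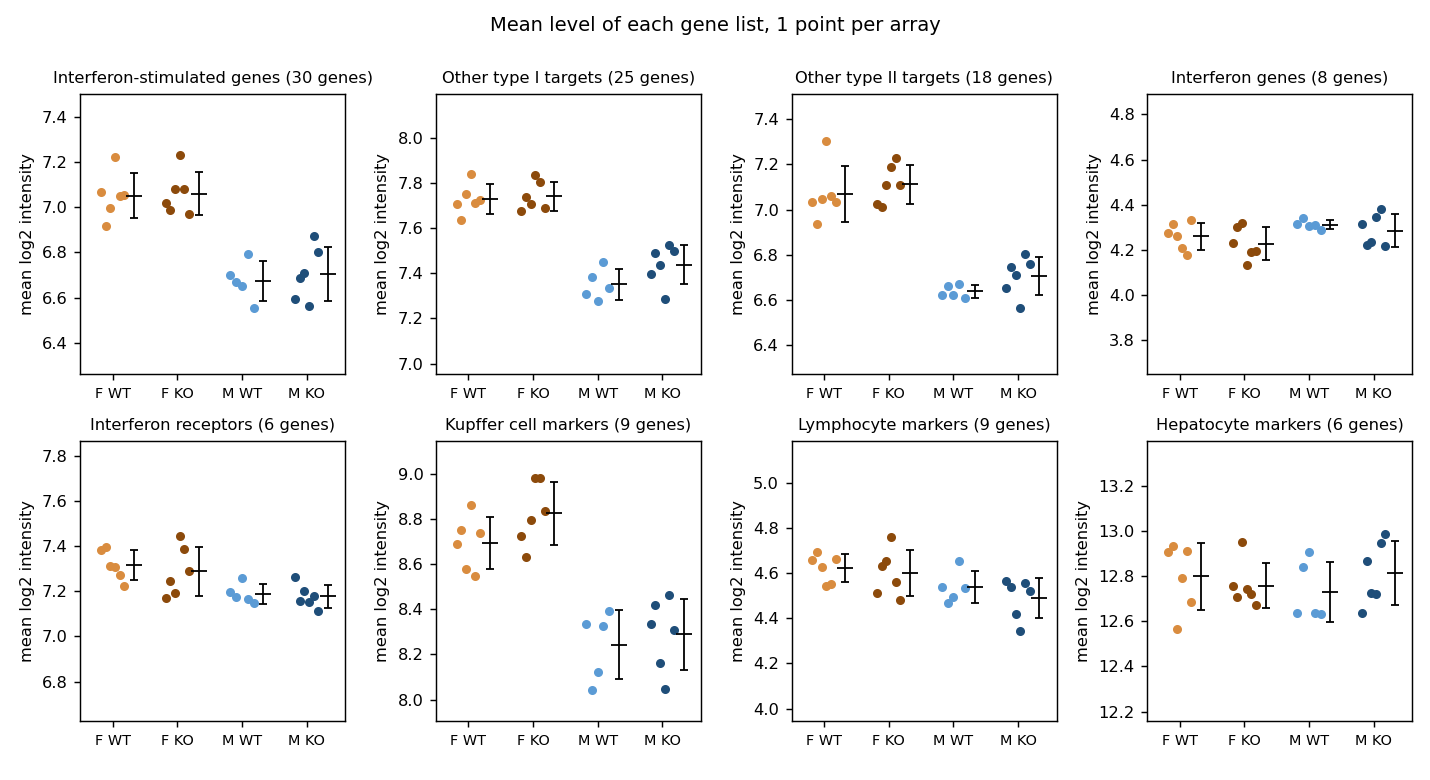
Mean log2 intensity of 8 gene lists on each array, with 1 point per array by group (F, female; M, male). The bar beside the points is the mean ± SD of the group. The lists of interferon-stimulated genes, of other type I and type II targets and of Kupffer markers separate the female from the male arrays, and the lists of hepatocyte and lymphocyte markers do not.

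Loss of P2ry13 left no interferon-stimulated gene past the threshold. In females 0 of the 30 genes differed between KO and WT (limma, adjusted p under 0.05), against 0.0547% of all probe sets. In males 0 differed, against 0.0313%. Averaged over the sexes 0 differed, against 0.0808%, and for the difference between the KO effects of the sexes 0 passed, against 0.0104%. With so few probe sets called in all, a count of 0 among 30 is near the background. At an unadjusted p under 0.05 the count was 2 in females, where 5.87% of all probe sets passed, and 1 in males, where 6.14% did. It was 1 for the average (Oasl1, 0.18, unadjusted p = 0.0296, limma, adjusted p = 0.707), against 6.91%, and 0 for the difference, against 5.14%. The lowest adjusted p of any of the 30 genes was 0.818 in females and 0.737 in males (limma).

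The sizes were small. The median KO difference of the 30 genes was 0.00 in both sexes, with 15 genes above and 15 below 0 in females and 14 above and 16 below in males. The median of all probe sets was -0.01 in females. Of the 30 limma 95% intervals, 29 lay within a change of 1.5-fold in females and 29 did in males, the exception in both being Gbp2, with -0.22 to 0.62 in females and -0.68 to 0.20 in males. The counts include Mx1, Oas1g, Xaf1, Mx2 and Oas3, where low signal may keep intervals narrow whatever the transcript does. No gene of the 30 had KO and WT arrays apart in either sex, while 0.229% of all probe sets did in females and 0.555% in males.

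Oasl1 had the highest KO difference in females. The female WT arrays read 7.02, 7.51, 7.35, 7.71, 7.70 and 7.53 and the KO arrays 7.85, 7.64, 7.67, 8.01, 7.63 and 7.79. The groups overlapped, with 3 KO arrays above the highest WT array and WT replicate 1 the lowest of all, and with a difference of 0.29 (SE 0.11, unadjusted p = 0.0125, limma, adjusted p = 0.818). In males Oasl1 read 7.42, 7.76, 7.24, 7.77 and 7.55 in WT and 7.34, 7.59, 7.67, 7.56, 7.78 and 7.79 in KO, a difference of 0.07 (SE 0.12, limma, adjusted p = 0.96). Igtp came next in females, with 0.21 (SE 0.12, limma, adjusted p = 0.867) from the values given above.

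Zbp1 and Oas2 had the lowest values in females. Zbp1 read 7.09, 7.11, 7.19, 7.56, 6.74 and 7.21 in female WT and 6.83, 6.46, 7.11, 7.22, 7.10 and 6.74 in KO. The groups overlapped, and the difference was -0.24 (SE 0.13, limma, adjusted p = 0.858). Oas2 read 6.21, 6.18, 6.33, 6.20, 6.35 and 6.31 in female WT and 6.09, 6.35, 6.13, 6.05, 5.65 and 6.06 in KO. All but 1 of the KO arrays lay below the lowest WT array, with a difference of -0.21 (SE 0.10, limma, adjusted p = 0.854). Bst2, the second gene at an unadjusted p under 0.05, had -0.17 (SE 0.08, unadjusted p = 0.0401, limma, adjusted p = 0.848).

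In males Ifit2 had the highest KO difference. It read 6.46, 6.48, 5.87, 6.44 and 6.17 in WT replicates 2 to 6 and 6.48, 6.62, 6.29, 6.34, 6.71 and 6.86 in KO. The ranges overlapped, with WT replicate 4 the lowest, and the difference was 0.27 (SE 0.11, unadjusted p = 0.0202, limma, adjusted p = 0.737). Cxcl10 followed, with 5.69, 5.75, 5.75, 5.76 and 5.82 in WT and 5.83, 5.80, 6.01, 5.61, 6.07 and 6.29 in KO. The WT arrays were close together and the KO arrays spread around and above them, with a difference of 0.18 (SE 0.12, limma, adjusted p = 0.851). At the other end Gbp2 had -0.24 (SE 0.21, limma, adjusted p = 0.906), and Usp18 had -0.15 (SE 0.12, limma, adjusted p = 0.893), with 7.63, 7.50, 7.54, 7.97 and 7.22 in WT and 7.14, 7.49, 7.22, 7.21, 7.81 and 7.67 in KO.

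Gbp2 and Gbp3 lie on chromosome 3, as P2ry13 does. Gbp3 had KO differences of 0.19 in females and 0.13 in males (limma, adjusted p = 0.886 and 0.914). In the lists of other interferon targets, ligands, receptors, signalling factors, nucleic acid sensing genes and cell type markers, 0 genes passed between KO and WT in either sex. Not all differences there were small: 1 Kupffer marker had 0.996 in females, where the median of the 9 was 0.00. In females 2 of the 9 had an unadjusted p under 0.05 (limma, lowest adjusted p = 0.599), against 5.87% of all probe sets.

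**Figure D5:**
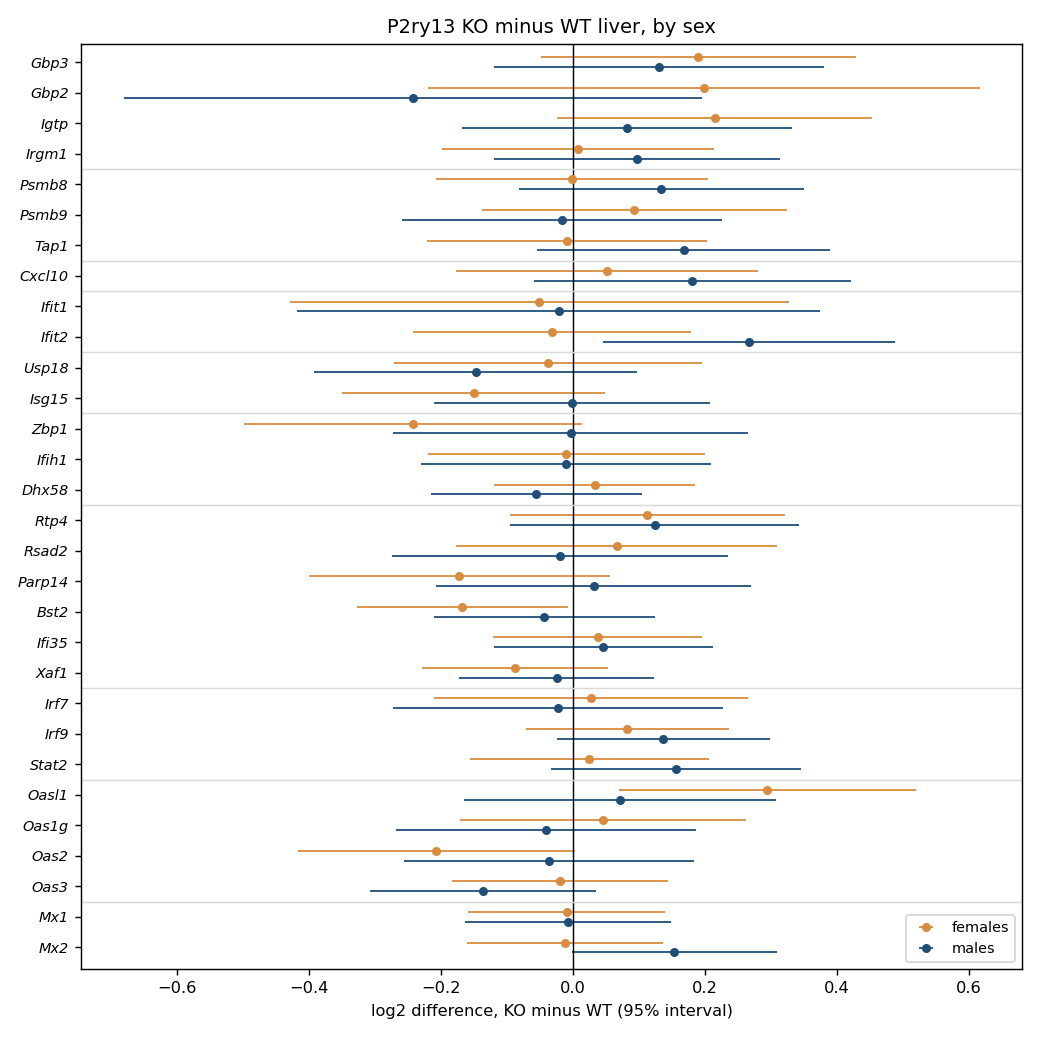
Difference in log2 intensity, KO minus WT, for each of the 30 measured genes in females and in males, with the limma 95% interval. Most intervals cross 0; those of Oasl1 and Bst2 in females and of Ifit2 in males do not, and no gene passed after adjustment over all probe sets.

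Within groups, certain arrays stood at one end for many of the genes, and they were picked out after their values were seen. Female WT replicate 4 was the highest of its group for 20 of the 30 genes, while it was the highest for 19.3% of all named genes. In female KO, replicate 4 was the highest for 15 of 30, against 16.9%. Male WT replicate 5 was the highest for 13 of 30, against 19.6%, and male KO replicate 5 for 10 of 30, against 18.7%. At the low end, female WT replicate 2 was the lowest for 16 of 30, against 14.3%, and male KO replicate 4 for 14 of 30, against 19.2%.

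Female WT replicate 4 was also the array of its group with the highest mean level of the other type I targets (7.84), of the other type II targets (7.30) and of the Kupffer markers (8.86). Female KO replicate 4, at 7.83 for the other type I targets, read 8.98 for the Kupffer markers, as did replicate 5. Male KO replicate 4 was the lowest of its group for the other type I targets (7.29), the other type II targets (6.56) and the Kupffer markers (8.05). Male KO replicate 5 was the highest of its group for the Kupffer markers (8.46). Other arrays differed: female WT replicate 2, lowest for the other type I (7.64) and type II targets (6.93), read 8.75 for the Kupffer markers. Its group ran from 8.55 to 8.86. Male WT replicate 5 read 8.33 for the Kupffer markers, in a group running from 8.04 to 8.39. The part of those cells in this was not tested. Leaving out any 1 of the 23 arrays gave 17 to 19 genes higher in females and 0 different between KO and WT.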

How the data were processed

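Liver RNA was measured on 23 arrays, 1 per sample. The deposited table, the authors' series matrix, holds linear intensity values; the submitters' processing notes name RMA, without version or settings. Values were converted to log2 with no further scaling. Groups and replicate numbers came from the sample titles. Probe sets were named from the repository's platform annotation: 24478 had 1 symbol, 65 several and 13842 none here.

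limma 3.58.1 in R 4.3.3 (lmFit, eBayes) was fitted to all 38385 probe sets with 1 mean per group, with Benjamini-Hochberg adjustment over the whole table and 0.05 as the threshold. The design text gives separate mice; where nothing else separates the samples, p-values measure the spread between these arrays only. The fit was checked on simulated data.

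The genes and lists were chosen with earlier results of these data known. Each of the 34 genes is named at least once. Array values, or the lowest, median and highest, are given for genes passing in a comparison, the extremes of KO against WT, the most variable within groups, and the brightest and dimmest. Of the other lists, mainly those with the smallest p are named; Csf1r, B2m, Ifnar1, Ifnar2, Marco, Alb and Siglech were named after their values were seen. Reading the sex comparison within each genotype was added after seeing the data. Alternatives tried were dropping dim probe sets (19192 kept), quantile normalization, array weights, equal medians for all arrays, a trend of variance with intensity, the replicate block, the compared groups alone, the design text's analysis of variance, averaged probe sets per gene, and leaving out each array. Promoters were searched with Python 3.11.15, and figures were drawn with matplotlib 3.10.9.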

Additional observations from a re-analysis of the deposited data

Results flagged for a closer look

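Within groups, 7 of 120 combinations of gene and group had 1 array far from the rest by Dixon's test, which by chance marks about 1 in 20 groups, and no gene passed the test of a difference in KO effect between the sexes (limma). Usp18 in female KO had replicate 4 the highest, at 8.37, with the next array at 8.04. Mx2 in female KO had replicate 5 the lowest, at 4.51, below 4.73, and Mx2 in male WT had replicate 6 the lowest, at 4.50, below 4.68. Irf7 in male KO had replicate 4 the lowest, at 7.59, with the next at 8.09. Dhx58 in female WT had replicate 4 the highest, at 6.86, above 6.69. Gbp2 in male WT had replicate 6 the lowest, at 4.66, with the next at 5.54. Psmb9 in male WT had replicate 2 the highest, at 8.61, above 8.21. Female WT replicate 4, female KO replicate 4 and male KO replicate 4 are also arrays on which many of the 30 genes stood at one end of their group.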

How the results depend on the processing

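The 19 genes higher in females were all kept without dim probe sets, with equal array medians, array weights or an intensity trend. Quantile normalization left 18, without Irgm1 (adjusted p = 0.0675), and the design text's analysis of variance after adjustment left 18 as well, also without Irgm1 (adjusted p = 0.0573). With the replicate block 18 remained, without Bst2 (adjusted p = 0.0684). Arrays of the same replicate number did not deviate together: of 33 same-number pairs, 3 had a correlation of deviations over 0.1 and 18 were below 0. The labels do not say what the numbers mean, so a link between such arrays is not settled. The unadjusted analysis of variance with a change over 20 percent gave 15 higher in females, and it gave 1 gene for KO in females (Oasl1) and 1 for KO in males (Ifit2), where all other settings gave 0. The contrast within WT gave 12 and that within KO 14, from means of fewer samples and with the spread of all 23 arrays. Leaving out single arrays gave 17 to 19 genes for sex and 0 for KO in each comparison, and 17 of the 19 calls stood without any of the 23 arrays. No direction reversed. Quantile normalization and equal medians moved the median of all probe sets by 0.00 and 0.02. Low signal limits Mx1, Oas1g and Xaf1 by the Y-linked range, and Mx2 and Oas3 by the P2ry13 readings on KO arrays. A difference in these genes may not have been measurable. By the same P2ry13 readings, low signal may also affect Parp14 (highest male array 5.30) and the lower male arrays of Gbp2 and Rtp4 (lowest 4.66 and 5.03). Over all probe sets, the unadjusted analysis of variance gave 485 for KO in females (21 by limma), 679 in males (12), 242 for the average (31), 1188 for the difference of KO effects (4) and 2384 for sex (4036). After adjustment it gave 6 in males and 2 for the difference. The contrast within WT gave 1632 for sex and that within KO 1862. Leaving out male WT replicate 6 gave 21 for KO in males.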
